A study of Mus musculus with 8 samples.

Results

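The Fzd7 locus was examined as the 192 methylation sites that lie on chromosome 1 between positions 59530000 and 59550000, of 136069 sites in the deposited table. The locus was chosen by its position and selected on earlier results of these data, in which methylation there was much lower in lung metastases marked TVI than in the other samples. Levels in TVI samples are therefore given as a description without a test, and the test at the locus compared lung metastases marked MFP with primary tumors. The samples were grown from 4T1, a mammary carcinoma cell line of BALB/c mice that forms tumors and spreads to the lung when transplanted. The labels mark them in this way: MFP for 2 primary mammary tumors and 3 of the lung metastases, TVI for the other 3 lung metastases. All 8 samples share the cell line and the strain. The labels give no genetic change, drug, age or time for any group and do not spell out MFP and TVI, which are kept as written. Nor do they tell whether each sample is a different mouse, so the spread between samples may be technical. Each value is a beta value, the fraction of methylated calls at a site after bisulfite conversion, written here as a percentage. No coverage was given, so the depth behind a value is unknown.

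Fzd7 encodes a Frizzled receptor, a membrane protein that binds secreted Wnt ligands and passes the signal through Dishevelled proteins to beta-catenin. Wnt signalling of this kind maintains progenitor cells in the mammary gland, and FZD7 has been studied in breast cancers, the basal type among them. Its coding sequence lies in a single exon. Promoters rich in CG dinucleotides are usually unmethylated in mammalian cells, whereas most other CG sites are methylated.

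The gene was placed on the deposited coordinates by the spacing of CG dinucleotides, because these coordinates were not those of GRCm38. The RefSeq promoter sequence of Fzd7 in GRCm38.p6, which runs from 250 bases before the gene start to 50 after it, holds 24 CG, a number reached by 20.1% of mouse promoter sequences in the same table. All 7 deposited sites that fell in this window landed on CG, and they were 7 consecutive CG with none skipped between them. No other offset within 12 Mb met this rule, and none of the other promoters on chromosome 1 met it at this place. Of 348 placed promoter windows, 305 shared their offset with another promoter within 20 Mb, but the Fzd7 window did not. Its placement rests on the 7 sites, the fewest that the rule allows without a shared offset. The gene start was thereby put at position 59538992 of the deposited coordinates, which may be off by 1 base, since it is not settled whether a listed position names the C or the G. The 250 bases before the start, at chr1:59481897-59482146 on the plus strand of GRCm38.p6, are shown because distances below are counted from their end, with the 7 measured CG in capitals.
Fzd7 promoter: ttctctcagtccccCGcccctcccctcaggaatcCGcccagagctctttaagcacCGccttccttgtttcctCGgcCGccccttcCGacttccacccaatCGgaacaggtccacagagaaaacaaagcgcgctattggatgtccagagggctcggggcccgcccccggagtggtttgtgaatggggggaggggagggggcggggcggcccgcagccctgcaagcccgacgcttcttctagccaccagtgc
These 250 bases hold 17 CG in all, and the 10 that lie nearest the gene start carry no deposited site.

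The 192 sites run from position 59537821 to position 59541859, from -1171 to 2867 bp relative to the start, and form a single region of 4039 bp when sites at most 500 bp apart are joined. The sites are dense, with a median gap of 10 bp and a largest gap of 385 bp, between -941 and -556 bp. The next deposited site outside the locus is 5238752 bp away, so the locus has no measured surroundings. RefSeq gives the gene a length of 4809 bp in GRCm38, so sites after the start lie within the gene's length, although only the promoter itself was matched. Whether a given site is coding or untranslated was not determined here.

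The sites were divided into 3 stretches after their values were seen. A flank of 12 sites, from -1171 to -941 bp, was mostly methylated in every sample. The 79 sites around the start, from -556 to 992 bp, were almost free of methylation in every sample. The 101 sites from 1033 to 2867 bp, here called the downstream segment, were largely methylated in the 5 MFP samples and largely unmethylated in TVI metastases.

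Around the gene start, mean methylation was 2.02% and 2.04% in the primary tumors, 3.07%, 2.79% and 3.31% in MFP metastases and 1.69%, 1.55% and 1.44% in the TVI metastases. All samples lay within 2 points of each other. The order of TVI metastases below the tumors rested on the last 24 of these sites, from 750 to 999 bp. Over the other 55 sites the tumors were at 1.40% and 0.987%, MFP metastases at 1.86%, 1.80% and 1.67% and TVI metastases at 1.35%, 1.47% and 1.29%, so that TVI metastases and tumors overlapped. The 7 sites of the printed promoter averaged 2.86% and 2.61% in the tumors, 1.79%, 1.13% and 1.48% in MFP metastases and 0.280%, 1.39% and 2.16% in the TVI metastases. TVI metastases overlapped the MFP metastases at these promoter sites. The site with the smallest spread among TVI metastases, 59538818 at -174 bp, was at 0% in all 3 of them, at 0%, 0% and 2.33% in MFP metastases and at 3.70% and 4.41% in the tumors.

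Most of the TVI difference lay in the downstream segment. There mean methylation was 82.4% and 82.1% in the primary tumors, 80.3%, 83.2% and 83.5% in MFP metastases and 28.3%, 16.2% and 20.1% in the TVI metastases. The group means were 82.2% ± 0.218 (SD, n = 2), 82.3% ± 1.72 (SD, n = 3) and 21.5% ± 6.20 (SD, n = 3), a difference of -60.8 points between TVI and MFP metastases. Every TVI sample was far below every other sample, and the groups did not overlap. The mean over all 136069 sites had the opposite order, with 66.9% and 66.6% in the tumors, 67.4%, 67.4% and 67.5% in MFP metastases and 68.6%, 68.5% and 68.6% in the TVI metastases. Over the whole region of 192 sites the levels were 49.2% and 49.0% in the tumors, 48.5%, 49.98% and 50.4% in MFP metastases and 20.2%, 13.8% and 16.0% in the TVI metastases. That is a difference of -33.0 points between TVI and MFP metastases and -32.4 points between TVI metastases and tumors.

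**Figure D1:**
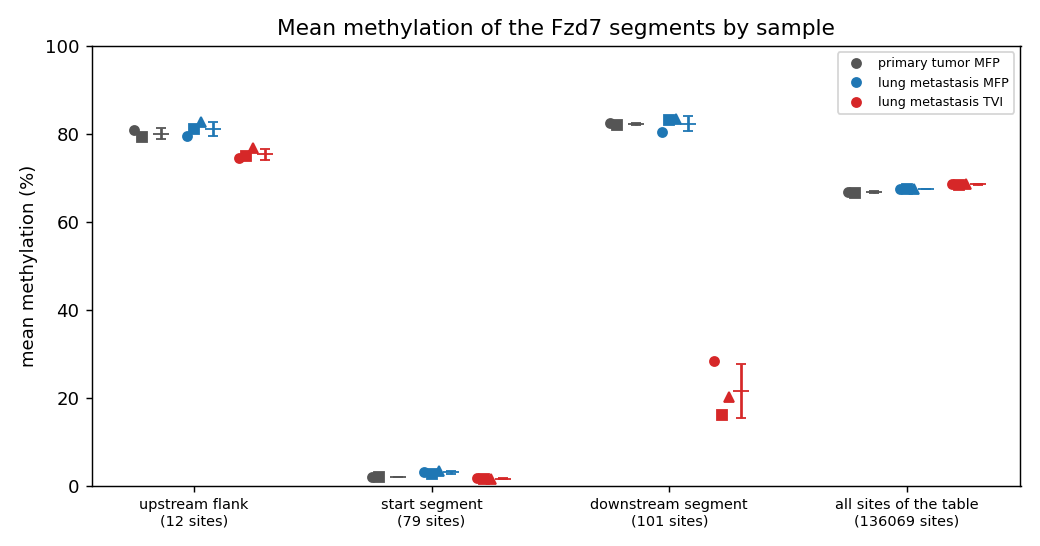
Mean methylation (%) of the 3 stretches of the Fzd7 locus and of all 136069 sites, with 1 point per sample and, beside each group, the mean with 1 SD. In the downstream segment the 3 TVI lung metastases sit between 16.2% and 28.3% and the 5 MFP samples between 80.3% and 83.5%, while all samples are below 4% around the start.

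Counted site by site, all 3 TVI metastases lay below all 5 MFP samples at 110 of the 192 sites, against 7.40% of all sites in the table. These were 101 of the 101 downstream sites, 5 of 79 around the start and 4 of 12 in the flank. All 3 lay above all 5 at 0 sites of the locus, against 14.4% of all sites in the table. TVI metastases were at least 50 points below MFP metastases at 80 of the 192 sites, against 0.270% of all sites, and all 80 lay in the downstream segment. A difference of at least 20 points was seen at 104 sites, against 2.69% of all sites. At 24 downstream sites the mean was at least 80% in MFP metastases and at most 20% in TVI metastases, and the whole table held 54 such sites. No site of the locus was higher in TVI than in MFP metastases by 10 points or more, against 9.77% of all sites. Loss in this text means a lower level than in the MFP samples, because no sample of the cell line before tumor growth is listed. Because the locus was chosen for this loss, these counts describe it and show nothing beyond the choice.

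**Figure D2:**
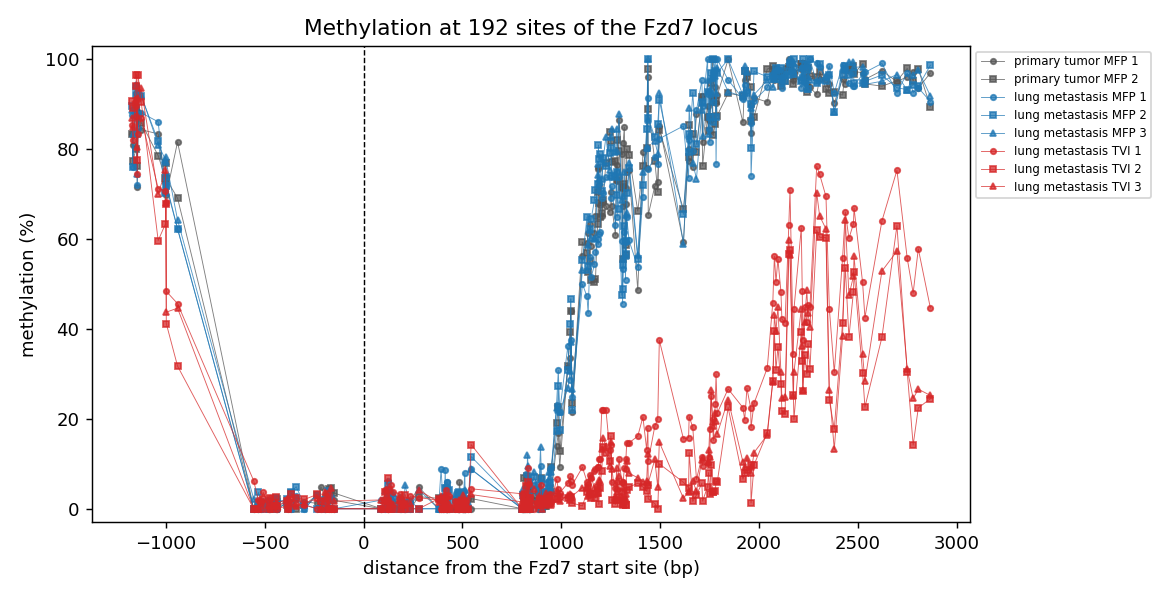
Methylation (%) at each of the 192 sites against distance from the Fzd7 start site (bp), with 1 line per sample and a dashed line at the start. All samples are near 0 around the start, the 5 MFP samples climb above 50% from about 1107 bp, and the 3 TVI lung metastases stay low until about 2000 bp and reach at most 76.2% beyond 1000 bp.

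The stretch of low methylation around the start reached farther in TVI metastases. Its downstream border was taken as the first site at 50% or more where that site and those after it, 5 in all, also averaged at least 50%. This border lay at 1107 bp in both tumors and in MFP metastases 2 and 3, and at 1145 bp in MFP metastasis 1. In TVI metastasis 1 it lay at 2078 bp and in TVI metastasis 3 at 2437 bp, and TVI metastasis 2 had no such border within the measured sites. The upstream border, found in the same way, was at -941 bp in all 5 MFP samples and at -1000 bp in all 3 TVI metastases. The stretch between the borders was 2048 to 2086 bp wide in the MFP samples, 3078 bp in TVI metastasis 1 and 3437 bp in TVI metastasis 3. The upstream border of the MFP samples is the first site beyond the largest gap between sites. It could lie anywhere in that gap, so the MFP widths may be too large by up to 385 bp. In TVI metastases the downstream border is not a clean step. TVI metastasis 3 had single sites above 50% before it, such as 70.4% at 2292 bp, and TVI metastasis 1 had sites below 50% after it, such as 30.3% at 2381 bp.

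In steps of 250 bp the difference opened near 1000 bp, widened up to 1999 bp, narrowed, and widened again toward the end. From 750 to 999 bp, MFP metastases were at 5.84%, 5.05% and 7.06% and TVI metastases at 2.47%, 1.73% and 1.80%. From 1000 to 1249 bp they averaged 58.7% ± 4.81 and 7.02% ± 2.97 (SD, n = 3 each). The difference was largest from 1750 to 1999 bp, where the tumors were at 92.1% and 90.3%, MFP metastases at 90.8%, 93.0% and 94.1% and TVI metastases at 22.3%, 7.36% and 15.6%, a mean difference of -77.5 points between the metastasis groups. Beyond that point TVI metastases were partly methylated. From 2250 to 2499 bp they were at 59.3%, 44.6% and 48.7%, while MFP metastases were at 96.7%, 96.1% and 96.4% and the tumors at 94.96% and 95.6%. Toward the last measured sites, from 2750 to 2999 bp, TVI metastases were at 51.6%, 22.9% and 26.9% and MFP metastases at 93.5%, 95.1% and 94.8%. The level in TVI metastases was thus lower again at the end of the measured sites.

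**Figure D3:**
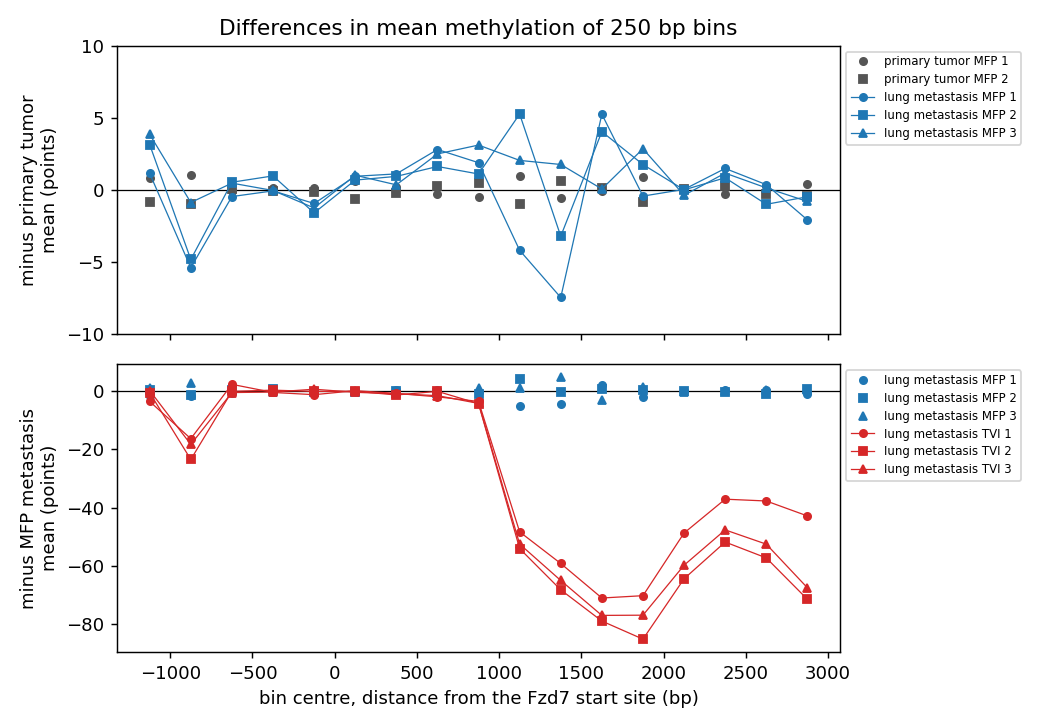
Differences in mean methylation (percentage points) of 250 bp bins against distance of the bin centre from the Fzd7 start (bp): above, MFP samples minus the primary tumor mean, and below, lung metastases minus the MFP metastasis mean, with 1 point per sample. MFP lung metastases stay within 8 points of the tumors in every bin, while TVI metastases differ from MFP metastases by -77.5 points on average in the bin from 1750 bp.

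The next sites were picked for their large differences and show the loss at its strongest, not its extent over the segment. The largest difference was at 59540732, 1740 bp after the start, where the tumors were at 89.7% and 87.2%, MFP metastases at 100%, 92.9% and 95.5% and TVI metastases at 10.2%, 4.92% and 10.4%. The difference between the metastasis groups was -87.6 points there. At 59540430, 1438 bp after the start, the tumors were at 96.0% and 97.9%, MFP metastases at 91.3%, 100% and 100% and TVI metastases at 17.9%, 5.32% and 12.2%. At both sites every TVI metastasis was below 18% and every other sample above 87%. The next largest differences, at 59540920, 59540781 and 59540761, were -84.4, -83.8 and -83.0 points, all between 1769 and 1928 bp. Neighbouring sites share reads and are not independent.

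The difference between the metastasis groups grew over a series of sites near 1000 bp. At 59539968, 976 bp after the start, TVI metastases averaged 4.21% and MFP metastases 20.9%, and at 59539977, 985 bp after the start, 3.37% and 26.7%. The latter was the first site after the start with a difference of at least 20 points. At the last site, 59541859, the tumors were at 97.0% and 89.5%, MFP metastases at 90.6%, 98.7% and 91.9% and TVI metastases at 44.7%, 24.5% and 25.2%, so the difference persisted to the end of the measured sites.

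A smaller difference lay on the upstream side. The 3 sites from -1000 to -751 bp averaged 75.1% and 73.1% in the tumors, 68.7%, 69.3% and 73.3% in MFP metastases and 54.1%, 47.0% and 52.1% in the TVI metastases. The groups did not overlap, and TVI metastases differed by -19.4 points from MFP metastases. Within it, the sites 59537994 at -998 bp and 59538051 at -941 bp differed by -29.3 and -22.3 points. The 9 sites farther out, from -1250 to -1001 bp, averaged 82.0% in the tumors, 84.8% in MFP metastases and 83.5% in the TVI metastases, and there the samples overlapped. The first site, 59537821, was at 83.3% in both tumors, at 87.6%, 89.5% and 88.7% in MFP metastases and at 85.4%, 90.7% and 86.9% in TVI metastases.

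TVI metastases differed among themselves in the extent of the loss and little in its shape along the gene. TVI metastasis 1 had the highest level of the 3 at 91 of the 101 downstream sites and TVI metastasis 2 the lowest at 84. The median downstream site was at 20.5% in TVI metastasis 1, 7.89% in TVI metastasis 2 and 12.5% in TVI metastasis 3. Across the 101 sites, Pearson's r was 0.946 to 0.963 between TVI metastases, 0.887 to 0.953 between the 5 MFP samples, and 0.556 to 0.709 between a TVI metastasis and an MFP sample. These correlations run over neighbouring sites of single libraries and are descriptions only. The largest spread among TVI metastases was at 59541798, 2806 bp after the start, with 57.8%, 22.4% and 26.6%. A beta value averages over all cells of a sample, so a lower level in every cell and loss in more of the cells cannot be told apart.

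The question whether the locus already differs between MFP lung metastases and the tumors is the one these data can test. The mean of the Fzd7 region was 0.529 points higher in MFP metastases (SE 1.65, 95% interval -3.32 to 4.38; limma adjusted p = 0.887 over 3083 regions, of which 5.25% passed the threshold of 0.05). The interval leaves room for differences of up to 4.38 points, so the groups were not shown to be alike. The sign of this difference turned under quantile normalization of the samples (-0.234 points) and with the median over sites in place of the mean (-2.92 points). Exact permutation of the 5 MFP samples took the smaller tail and doubled it to cover both directions. The exact permutation p was 0.6 for the region, 0.4 for the flank and 1 for the downstream segment. In the start segment all 3 MFP metastases were above both tumors, with a difference of 1.02 points on average. The exact permutation p was 0.2 there, the smallest that 10 splits allow with this doubling. Without the 24 sites from 750 bp that difference was 0.581 points. Over all 136069 sites MFP metastases were likewise above both tumors, by 0.731 points on average, so this order is not particular to the gene start.

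At single sites, limma called 0 of the 192 sites between MFP metastases and tumors at an adjusted p of 0.05, against 0.0464% of all sites tested. At an unadjusted p under 0.05 there were 21, with 12 higher and 9 lower in MFP metastases, which is 10.9% of the locus against 8.66% of all sites. This count moved between 14 and 22 when a metastasis was left out, also for TVI metastases, which enter only the estimate of the spread. Several of the lower sites lay close together between 59540298 and 59540323, and several of the higher ones between 59539852 and 59539984. The count is therefore not one of independent sites. The smallest adjusted p by limma was 0.124, at 59539984, 992 bp after the start, where MFP metastases were 9.17 points higher. At 59540305, 1313 bp after the start, MFP metastases differed by -17.4 points from the tumors (limma adjusted p = 0.346). Neither site passed the test.

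Other Wnt pathway genes were placed by the same rule where their promoters carried enough sites. Of 83 listed genes, 6 could be placed, namely the receptors Fzd7, Fzd1 and Ryk, the secreted Wnt antagonist Frzb, the Dishevelled gene Dvl1 and the beta-catenin kinase gene Gsk3b. None of the 21 listed Wnt ligands and none of the 11 listed target genes was placed. Among 348 placed promoter windows, limma called 0% between MFP metastases and tumors at an adjusted p of 0.05, with 37 at an unadjusted p under 0.05. Of the 6 Wnt pathway promoters, Fzd7 alone was below that unadjusted level, with a difference of -1.27 points (limma, adjusted p = 0.440). It was no longer below that level when either tumor, MFP metastasis 2 or 3, or TVI metastasis 2 was left out.

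Fzd1, a Frizzled receptor gene closely related to Fzd7, had higher promoter methylation in TVI than in MFP metastases, in the opposite direction to the Fzd7 downstream segment. Its 12 promoter sites on chromosome 5 averaged 7.19% and 6.92% in the tumors, 4.89%, 6.77% and 7.89% in MFP metastases and 26.2%, 32.6% and 23.9% in the TVI metastases. All 3 TVI metastases were above every other sample. The difference between TVI and MFP metastases was 21.1 points (SE 1.97; limma adjusted p = 7.97e-05 over the placed promoters). The test called 9.48% of placed promoters higher and 7.47% lower in TVI metastases, and of the 5 Wnt pathway promoters other than Fzd7 it called 1 higher and 0 lower. The region around the Fzd1 promoter, from 4758225 to 4760004 with 49 sites, averaged 55.1% in MFP metastases and 68.1% in the TVI metastases, without a test.

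The remaining promoters did not pass. Frzb, which encodes a secreted protein that binds Wnt ligands, was at 89.6% and 85.4% in the tumors, 92.5%, 86.1% and 86.1% in MFP metastases and 80.8%, 82.6% and 83.4% in the TVI metastases over 4 sites (-5.94 points between TVI and MFP metastases, limma adjusted p = 0.0663). Without MFP metastasis 1 the Frzb difference was -3.78 points (limma adjusted p = 0.146). Ryk, a receptor that binds Wnt ligands, averaged 1.65% in the tumors, 1.81% in MFP metastases and 1.48% in the TVI metastases over 10 sites. Dvl1, which relays the signal from Frizzled receptors, averaged 1.55%, 1.18% and 1.37% in the same order over 7 sites. Gsk3b, a kinase that marks beta-catenin for breakdown, averaged 1.52%, 1.61% and 1.69% over 20 sites. Like the Fzd7 promoter, these last 3 promoters were nearly free of methylation in every sample. Their wider regions were not all so. The Ryk region of 17 sites averaged 17.7% ± 1.24 in MFP metastases and 25.8% ± 0.356 in TVI metastases, and the Dvl1 region of 20 sites 25.4% ± 0.456 and 29.97% ± 0.171 (SD, n = 3 each). The Frzb region of 44 sites averaged 77.04% and 75.3% and the Gsk3b region of 59 sites 1.47% and 1.39% in the same order, and none of these region differences was tested. The median difference between TVI and MFP metastases was 0.0725 points over the 5 Wnt pathway promoters without Fzd7 and 0.0494 points over all placed promoters.

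**Figure D4:**
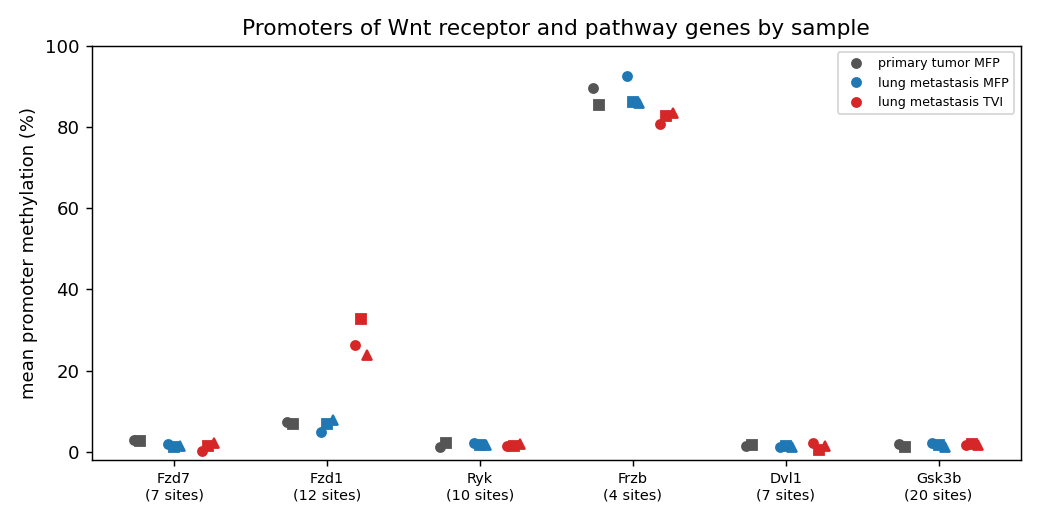
Mean promoter methylation (%) of the 6 placed Wnt pathway genes, with 1 point per sample and the number of sites below each name. Fzd1 in TVI lung metastases sits between 23.9% and 32.6% against 4.89% to 7.89% in the other samples, while the Fzd7 promoter is below 3% in every sample.

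Regions with levels most like those of the Fzd7 region were sought by the root mean square difference over the 8 sample means, among 2577 regions of at least 10 sites. The closest lay on chromosome 12 from 113146598 to 113147244, with a difference of 6.67 points and mean levels, in the order tumors, MFP and TVI, of 44.5%, 43.3% and 24.6%. The next was on chromosome 15 from 97645518 to 97646332, at 7.05 points. The third, on chromosome 12 from 56591181 to 56592653, came nearest to Fzd7 in the size of the loss, with 58.7%, 60.2% and 21.9% over 34 sites. The other two lay on chromosome 9 from 20940064 to 20941360 and on chromosome 17 from 79752614 to 79754113, and the last of these holds the placed promoter of Gm17315. These regions were picked by the sample means themselves, so their low levels in TVI metastases follow from the choice.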

How the data were processed

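The authors deposited a table of beta values, the fraction of methylated calls per site from 0 to 1, per the file headers. The ZR-Duet DNA/RNA miniprep was used for extraction and the EZ-DNA Methylation Gold kit for bisulfite conversion, per the labels' protocols. Trimmomatic, Bismark and mm10 appear in the submitters' processing notes without versions or settings, and any coverage filter is not given in the sources used here. Values were multiplied to percent, and a mean over sites weights each site equally. Depth is unknown, so precision was judged from the spread between samples.

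The build was checked first. At GRCm38.p6 positions, 4.03% of 1860 sites in RefSeq promoter windows fell on a CG, and the highest site on chromosome 7, at 152129719, lay beyond the last gene end in GRCm38, at 145324059. Positions were therefore kept as deposited, with no build named, and promoters were placed by CG spacing. A placement needed at least 4 sites in the window, 90% of them on CG, 75% of the CG between the first and last site measured, and either 7 sites or an offset shared with another promoter within 20 Mb. This rule was set after the data were examined. It placed 348 of 32585 windows, for 310 genes. Offsets shared by many promoters were -138685 bp on chromosome 11 (28 genes) and -144479 bp on chromosome 2 (14 genes). None of 32 listed marker genes of epithelial, leukocyte, lung, endothelial or fibroblast cells was placed, so the labelled tissues could not be checked against markers.

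MFP metastases and primary tumors were compared with limma 3.58.1 in R 4.3.3 on fractions. The fit had 1 mean per group over all 8 samples and a variance trend, and p-values had a Benjamini-Hochberg adjustment over the sites that varied (135914), all 3083 regions (sites at most 500 bp apart, at least 3 sites) or all placed promoters. The procedure was tested on simulated data. The test of TVI against MFP metastases at promoters other than Fzd7 was added after the data were examined. Named sites were the 5 largest differences between TVI and MFP metastases, rises of at least 10 points, sites called between MFP metastases and tumors, the first and last site, the sites with the largest and smallest TVI spread and those at the borders of the loss. Sites with the smallest p or the largest difference between MFP metastases and tumors were named after their values were seen. The locus and the gene lists were chosen with earlier results of these data known. Alternatives were quantile normalization, a logit scale, no variance trend, fewer samples, other joining distances, medians, a replicate block and leaving out each sample. Leaving out the sites from 750 bp around the gene start was added after seeing the data. No column held a sample that the labels do not list.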

Additional observations from a re-analysis of the deposited data

Results flagged for a closer look

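Over the 79 sites around the gene start, all 3 MFP metastases lay above both primary tumors and all 3 TVI metastases below both, with a difference of -1.49 points between TVI and MFP metastases. Most of it came from 24 of these sites, those from 750 to 999 bp, where the same order held with a difference of -3.98 points. Over the other 55 sites TVI metastases overlapped the tumors, and the difference between TVI and MFP metastases was -0.404 points. MFP metastases were above both tumors over all 136069 sites too, by 0.731 points on average. In the 11 sites from 2250 to 2499 bp MFP metastases were above both tumors and TVI metastases below them, with -45.6 points between the metastasis groups. The difference was not tested in any of these cases, because the locus was chosen for its low level in TVI metastases.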

How the results depend on the processing

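The region difference between MFP metastases and tumors missed the threshold in every setting run. It was -0.234 points under quantile normalization and -2.92 points for the median over sites, and the cause was not tested. Leaving out each sample in turn gave 0.131 to 1.10 points. With sites joined at most 250 bp apart, the locus split into pieces of 12, 55 and 125 sites, and the largest piece differed by -49.9 points between TVI and MFP metastases and by -49.4 points between TVI metastases and tumors. With the median over sites these differences were -58.0 and -60.9 points. Leave-one-out values were -34.7 to -31.5 points for TVI against MFP metastases, -34.2 to -31.0 points for TVI metastases against tumors and 110 to 112 for the count of sites with all TVI metastases lowest. For the downstream segment they were -64.2 to -58.1 points. The TVI difference around the gene start was -0.404 points without the sites from 750 bp, -1.79 points under quantile normalization and -1.62 to -1.36 points when a sample was left out. The MFP metastases differed from the tumors there by 1.02 points, and by 0.581 points without the sites from 750 bp. With the replicate block, the region difference of MFP metastases from tumors was 0.508 points (limma adjusted p = 0.910). Deviations of samples with the same number correlated by 0.0172 and 0.0129 between tumors and MFP metastases. With 2 tumors, whose deviations mirror each other, and unknown depth, these values cannot show whether the numbers pair the samples. The calls over all sites, 63 with the settings used above, numbered 0 with the block, 28 under quantile normalization, 155 without the variance trend, 0 on the logit scale, 0 with only the 5 MFP samples and 0 to 18 when a sample was left out, and the locus had 0 in each. Quantile normalization, the logit scale and the fit without a variance trend were not run for promoters. Fzd1 was called higher in TVI metastases with the replicate block, with at least 5 sites per promoter and when any metastasis was left out. Its difference was 18.6 to 22.9 points when a sample was left out. Without coverage, noise from few reads at a site cannot be separated from differences between samples.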

Other observations

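The order of TVI metastases at Fzd7 was also seen outside it. At 288 sites in 94 other regions where TVI metastases were at least 50 points below MFP metastases, TVI metastasis 1 had the highest level of the 3 at 255 sites, and the means were 31.6%, 18.3% and 22.2% in TVI metastases 1, 2 and 3. At 351 sites in 186 regions where TVI metastases were at least 50 points above MFP metastases, TVI metastasis 1 had the lowest level at 293, and the means were 68.9%, 79.5% and 76.2%. Over all 136069 sites it was the highest at 47868. TVI metastasis 1 was thus nearest to the MFP metastases at most of the strongly differing sites in both directions, and the cause was not tested.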
